A study of Chlamydomonas reinhardtii with 18 samples.

Results

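The comparison described here sets Chlamydomonas cells 30 min into iron-free medium against cells sampled before the wash. Each of the 2 groups held 2 cultures, 4 of the 18 samples of a time series with 9 sampling points. Of 17741 genes in the deposited table, 12580 passed a filter that asked for an FPKM of at least 1 in 2 or more of the 9 columns, and these were compared. FPKM relates the sequenced fragments of a gene to the length of its transcript and to the number mapped in the library. Chlamydomonas reinhardtii is a unicellular green alga that swims with a pair of cilia, photosynthesizes and can also live on acetate. Polyadenylated RNA was sequenced. Strain CC-4532 was grown to mid-logarithmic phase in TAP, a medium that supplies acetate, at 24 °C with the light always on, at roughly 90 µmol photons reaching each square metre every second. The 30 min group had been spun down, washed 2 times in TAP lacking Fe-EDTA and placed in fresh TAP with no added iron for 30 min. The pre-wash group was sampled ahead of the spin. Its label, like that of the 30 min group, names TAP without Fe-EDTA and iron deprivation, and the sources used here do not say how much iron its medium contained. No culture put into fresh medium that contained iron is among the samples, so handling, fresh medium, elapsed time and absence of iron cannot be told apart in any difference reported here. The authors merged the pair of cultures into 1 value per gene and time point. No value has a replicate error, no difference can be tested, and "higher" and "lower" describe the size of the difference between a pair of columns.

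Iron is needed in the photosystems, the respiratory chain and many enzymes. Chlamydomonas takes it up by reducing ferric iron at the cell surface and passing it through a ferroxidase and permease pair, helped by secreted FEA proteins and by transporters of the ZIP family. The same cell adjusts carbon supply through the CO2-concentrating mechanism, in which bicarbonate transporters and carbonic anhydrases raise CO2 around Rubisco. Acetate from the medium enters metabolism through acetyl-CoA and the glyoxylate cycle. Excess light energy is dissipated by the LHCSR proteins, relatives of the light-harvesting antenna.

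At 30 min 696 of the 12580 genes (5.53%) were at least 2-fold higher than before the wash on the log2(FPKM + 1) scale and 470 (3.74%) at least 2-fold lower, together 9.27%. The 1 added to each FPKM keeps weakly transcribed genes from dominating and understates their differences. At 4-fold, 104 genes (0.827%) were higher and 36 (0.286%) lower, together 1.11%. The median log2 difference of all compared genes was 0.07, and single genes ran from -4.19 to 7.94. Genes called higher held 7.28% of the summed FPKM at 30 min and 2.61% before the wash, and genes called lower held 0.731% at 30 min and 2.72% before the wash. The direction of these shares follows from the call, and only their size is informative. The split between directions depended on the scaling. After quantile normalization, which gives all columns the same distribution, 508 genes were higher and 539 lower, and with 0.1 added in place of 1 the counts were 985 and 1114. The shares of all compared genes, 5.53% higher and 3.74% lower, are the background for the list counts below. Under quantile normalization they were 4.04% and 4.28%. The lists were chosen with earlier results of these data known, so their counts beside this background are a description only. The split also depended on the level of the gene. Among genes with a mean over the 9 columns below 3 FPKM, 58 of 4252 were higher and 161 lower, whereas between 30 and 100 FPKM 173 of 1329 were higher and 22 lower. Under quantile normalization the counts in these bands were 78 higher and 118 lower, and 82 and 54. The line itself falls within a dense range of genes. Cre13.g576350, just inside it, had 3.13 FPKM at 30 min and 1.07 before the wash, and Cre09.g412350, just outside, had 11.2 FPKM at 30 min against 5.10 FPKM pre-wash. On the lower side EEP1, just inside, had 0.281 FPKM at 30 min and 1.56 FPKM before the wash.

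**Figure D1:**
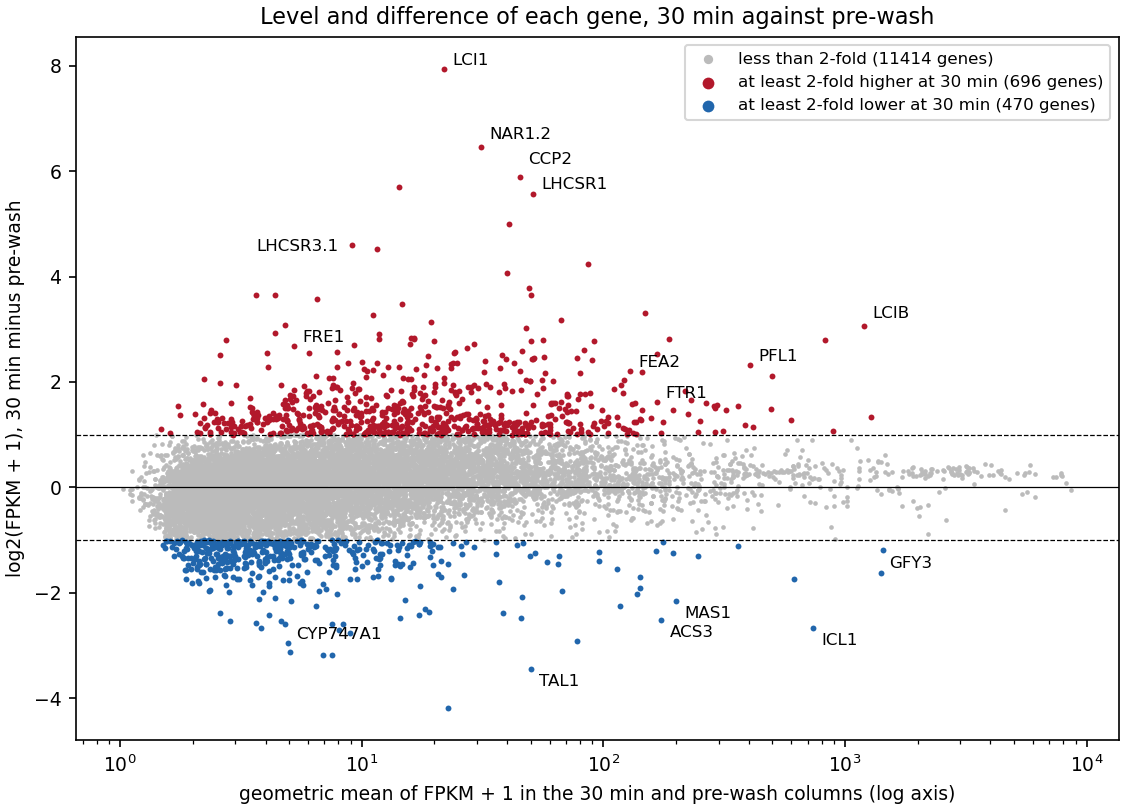
Each point is 1 of the 12580 compared genes, with the geometric mean of FPKM + 1 in the 30 min and pre-wash columns on the x axis (log scale) and the log2(FPKM + 1) difference, 30 min minus pre-wash, on the y axis. Red points are the 696 genes at least 2-fold higher at 30 min and blue points the 470 at least 2-fold lower, with dashed lines at the 2-fold limits. The points reach 7.94 (LCI1) on the upper side and -4.19 on the lower side.

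The summed FPKM was 734454 at 30 min and 631357 before the wash, and 11229 genes at 30 min and 11783 before the wash had an FPKM of 1 or more. The depth of the libraries is unknown. No columns are replicates. Between columns labelled 5 min apart, the log2 differences had a robust SD of 0.310 with 357 genes past 2-fold for 5 min against post-wash. For 10 against 5 min these were 0.192 and 49 genes, and for 15 against 10 min 0.168 and 7 genes. For post-wash against pre-wash, both labelled 0 min with the wash between them, they were 0.435 and 1214 genes. The comparison of 30 min with pre-wash had 1166 genes past 2-fold. The columns are bulk RNA, in which more cells transcribing a gene and more RNA per cell cannot be told apart. Transcripts of photosynthetic green cells were abundant in both columns, with PSAE of photosystem I at 2380 FPKM at 30 min and 2529 FPKM before the wash.

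Iron assimilation genes stood higher at 30 min. Of 10 members, 7 were at least 2-fold higher and 1 lower, and the median log2 difference was 1.36, against 0.07 for all genes (1.18 with 6 higher under quantile normalization). At the cell surface, FRE1 (Cre04.g227400), a ferric-chelate reductase, had 12.2 FPKM at 30 min and 1.08 FPKM before the wash, an 11.4-fold ratio. It had been below its pre-wash value in every column between these, with 0.645 FPKM post-wash and 0.548, 0.660 and 0.937 FPKM at 5, 10 and 15 min, so among the early columns only the 30 min value was higher. FTR1 (Cre03.g192050), the iron permease, had 292 FPKM at 30 min against 94.7 FPKM pre-wash. FOX1 (Cre09.g393150), the multicopper ferroxidase that works with it, had 279 FPKM at 30 min and 181 FPKM before the wash, a ratio of 1.55 that stayed below the line.

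The secreted Fe-assimilating proteins differed from each other. FEA2 (Cre12.g546600) had 277 FPKM at 30 min and 59.3 FPKM before the wash (4.67-fold). FEA1 (Cre12.g546550), beside it in the genome and the most abundant member of the list, had 1620 FPKM at 30 min and 1167 FPKM pre-wash (1.39-fold). TEF22 (Cre12.g546500), on the other side of FEA1 and of unknown role, had 246 FPKM at 30 min against 120 FPKM pre-wash, and dropped below 2-fold under quantile normalization. The ZIP family transporters IRT1 (Cre12.g530400) and IRT2 (Cre12.g530350) are also neighbours. IRT1 had 3.55 FPKM at 30 min against 0.0922 FPKM before the wash, and IRT2 had 9.79 FPKM at 30 min against 2.85 FPKM before the wash. These remained the least abundant of the higher members, and IRT2 stood at 7.03 FPKM in the post-wash column already. CGLD27 (Cre05.g237050), a conserved protein of green lineages, had 23.7 FPKM at 30 min and 9.51 FPKM before the wash. MSD3 (Cre16.g676150), a manganese superoxide dismutase, was the exception, with 3.19 FPKM at 30 min and 11.8 FPKM before the wash.

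Genes for storing and handling iron differed little. None of 6 members reached 2-fold in either direction, and all 6 were slightly higher (median 0.52, or 0.32 under quantile normalization). FER1, the more abundant ferritin, had 391 FPKM at 30 min and 254 FPKM pre-wash, the metal transporter NRAMP2 9.22 FPKM at 30 min against 5.36 FPKM pre-wash, and NRAMP1, another metal transporter, 18.3 FPKM at 30 min and 12.1 FPKM before the wash. FDX5, a ferredoxin, had 12.7 FPKM at 30 min against 8.80 FPKM before the wash.

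Several transporters of other metals were also higher. In the list of zinc, ZIP and CDF transporters 7 of 17 compared members (41.2%) were 2-fold higher and 0 lower, with a median of 0.61. Of all compared genes 5.53% were higher and 3.74% lower. IRT1 and IRT2 are among the 7 higher transporters. ZRT1, a zinc-nutrition responsive transporter, had 13.0 FPKM at 30 min and 0.656 FPKM before the wash. Its value was 1.61 FPKM at 60 min and 0.651 FPKM at 240 min, so the high values lay between 5 and 30 min. ZRT5 had 67.2 FPKM at 30 min and 13.98 FPKM pre-wash, and ZRT2 38.2 FPKM at 30 min against 12.2 FPKM pre-wash. HMA1, a metal-transporting ATPase, had 22.0 FPKM at 30 min and 7.38 FPKM before the wash. Of 17 compared genes of copper transport and copper response, 5 (29.4%) were higher and 0 lower. The list median was 0.19, and -0.17 with 3 members higher under quantile normalization. The higher members were transporters and CYC6, but other transporter genes of the list did not pass the line. CTP2 (15.3 FPKM at 30 min, 11.6 FPKM pre-wash) and CTP3 (3.52 and 2.94 FPKM) had higher values. CTP4 (0.826 and 1.78 FPKM) and COPT1 (2.73 and 3.93 FPKM) had lower ones. CTR2, a CTR-type copper transporter, had 44.2 FPKM at 30 min and 8.35 FPKM pre-wash, CTR1 30.0 FPKM at 30 min against 12.1 FPKM pre-wash and CTR3 61.3 FPKM at 30 min and 25.5 FPKM before the wash, and CTR1 and CTR3 dropped below 2-fold under quantile normalization. CTP1, a heavy metal ATPase, had 37.1 FPKM at 30 min and 11.1 FPKM before the wash. CYC6, the cytochrome that can replace plastocyanin, had 5.17 FPKM at 30 min and 0.0844 FPKM pre-wash. CRR1, the copper response regulator, had 52.0 FPKM at 30 min against 53.2 FPKM pre-wash. CPX1 and CRD1 are enzymes of chlorophyll synthesis that also respond to copper. CPX1 had 106 FPKM at 30 min and 161 FPKM before the wash, and CRD1 had 104 FPKM at 30 min and 161 FPKM before the wash.

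**Figure D2:**
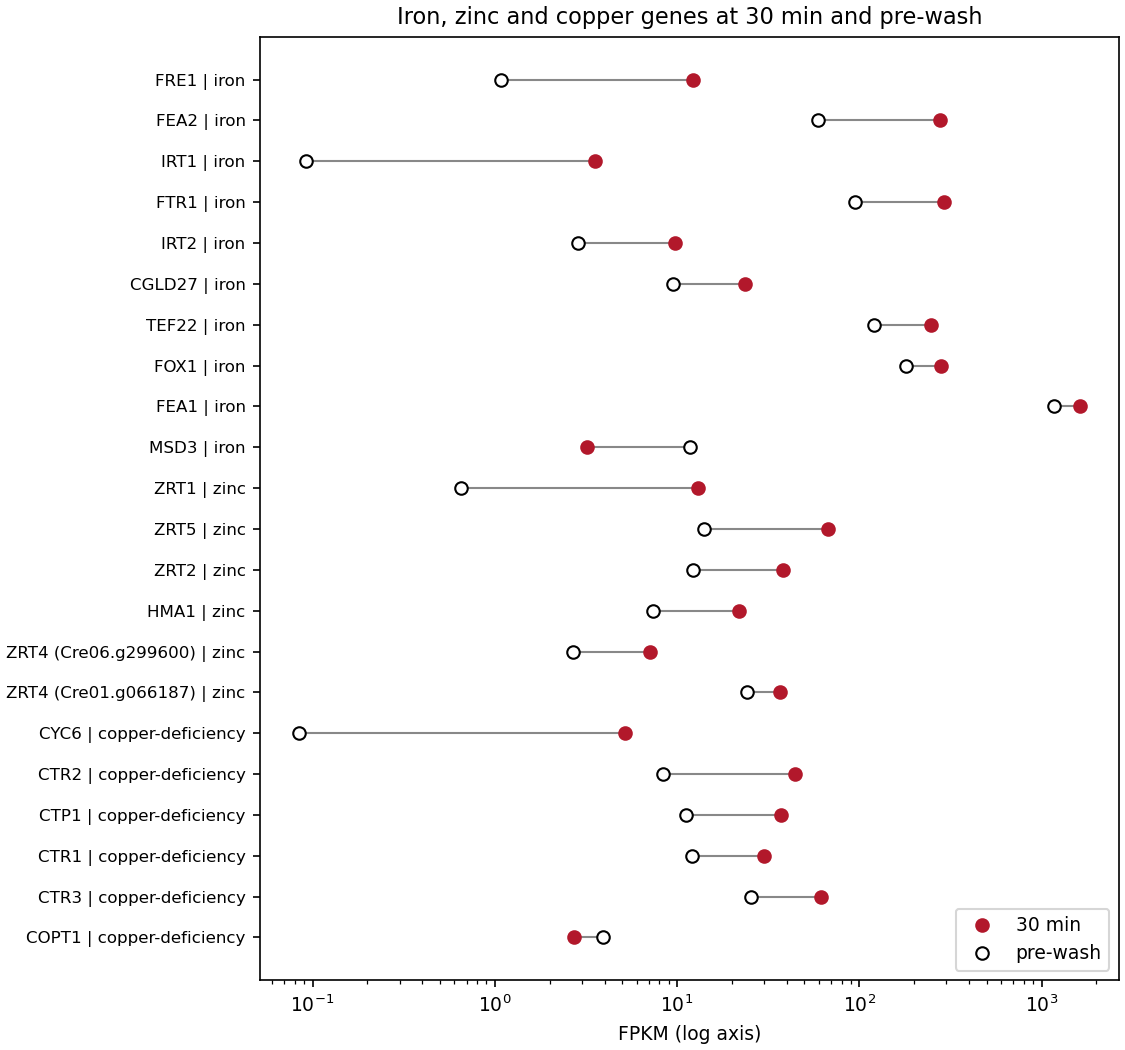
FPKM (log axis) of the iron assimilation genes and of selected zinc and copper transporters and CYC6, with 30 min as filled red points and pre-wash as open points joined by a line. All iron genes but MSD3 lie to the right of their pre-wash value, FRE1 with 12.2 FPKM at 30 min against 1.08 FPKM pre-wash and FEA1 with 1620 FPKM at 30 min against 1167 FPKM pre-wash.

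The largest differences belonged to the CO2-concentrating mechanism. Of 20 members, 16 were at least 2-fold higher at 30 min and 1 lower, and the median log2 difference was 2.80. Together they held 10742 FPKM at 30 min and 2104 FPKM before the wash, which was 1.46% of the summed FPKM at 30 min and 0.333% before the wash. Several members are membrane proteins of inorganic carbon uptake. LCI1 (Cre03.g162800), a membrane protein of the plasma membrane, had 341 FPKM at 30 min and 0.390 FPKM before the wash, the largest log2(FPKM + 1) difference of any gene. NAR1.2 (Cre06.g309000), an anion transporter of the chloroplast envelope, had 290 FPKM at 30 min against 2.33 FPKM pre-wash. HLA3, an ABC-type bicarbonate transporter, had 30.4 FPKM at 30 min and 3.47 FPKM before the wash. CCP2 and CCP1 encode low-CO2-inducible envelope proteins, per the deposited products. CCP2 had 348 FPKM at 30 min and 4.88 FPKM before the wash, and CCP1 had 229 FPKM at 30 min and 6.21 FPKM before the wash.

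Carbonic anhydrases, which interconvert CO2 and bicarbonate, did not all go the same way. Of the mitochondrial enzymes, CAH4 had 176 FPKM at 30 min and 13.1 FPKM before the wash, and CAH5 had 163 FPKM at 30 min and 8.81 FPKM before the wash. The periplasmic enzyme CAH1 had 494 FPKM at 30 min and 69.5 FPKM before the wash, and CAH3 of the thylakoid lumen had 463 FPKM at 30 min against 153 FPKM pre-wash. CAH2, a close relative of CAH1 known for being favoured at high CO2, had 7.62 FPKM at 30 min and 23.1 FPKM before the wash and was the lower member. The other 3 stayed within 2-fold, with CAH6 at 36.9 FPKM at 30 min and 50.0 FPKM before the wash, CAH7 at 13.6 FPKM at 30 min and 18.4 FPKM before the wash, and CAH8 at 87.2 FPKM at 30 min and 101 FPKM before the wash.

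Proteins around the pyrenoid, the compartment where Rubisco is packed, were the most abundant members. LCIB had 3477 FPKM at 30 min and 415 FPKM before the wash, its partner LCIC 2165 FPKM at 30 min and 312 FPKM pre-wash, and LCI5, the linker of Rubisco, 2031 FPKM at 30 min against 810 FPKM pre-wash. Of the 2 neighbouring genes named LCI11, Cre16.g663400 had 240 FPKM at 30 min and 85.8 FPKM before the wash, and Cre16.g663450 had 98.9 FPKM at 30 min and 23.6 FPKM before the wash. LCID had 48.0 FPKM at 30 min against 3.39 FPKM pre-wash and LCIE 2.29 FPKM at 30 min and 0.404 FPKM before the wash. Reads may be split between near-identical copies, so the separate values within CAH4 and CAH5, CCP1 and CCP2, LCID and LCIE, CAH1 and CAH2, and the LCI11 genes are uncertain. The pairs CCP2 with LCID and LCIE with CCP1 lie side by side in the genome. LCR1, a Myb factor that acts on CAH1 and LCI1, had 41.8 FPKM at 30 min and 5.00 FPKM pre-wash, while CCM1, the master regulator of the mechanism, had 36.1 FPKM at 30 min against 25.8 FPKM pre-wash.

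The members were highest at different sampling points. LCI1 had 1.57 FPKM post-wash, 13.9, 42.9 and 74.3 FPKM at 5, 10 and 15 min, then 341 FPKM at 30 min and 682 FPKM at 240 min. CCP2, by contrast, had reached 484 FPKM at 10 min and was lower at 30 min. NAR1.2 was highest at 15 min with 369 FPKM. The regulator LCR1, which is not a member of the list, was highest at 10 min with 78.2 FPKM. LCIB, LCIC, LCI5 and CAH3 were highest at 30 min itself. The list medians relative to the pre-wash column, which all of these share, were 0.60 post-wash, 1.89, 2.35 and 2.60 at 5, 10 and 15 min, 2.80 at 30 min and 1.87 at 60 min.

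**Figure D3:**
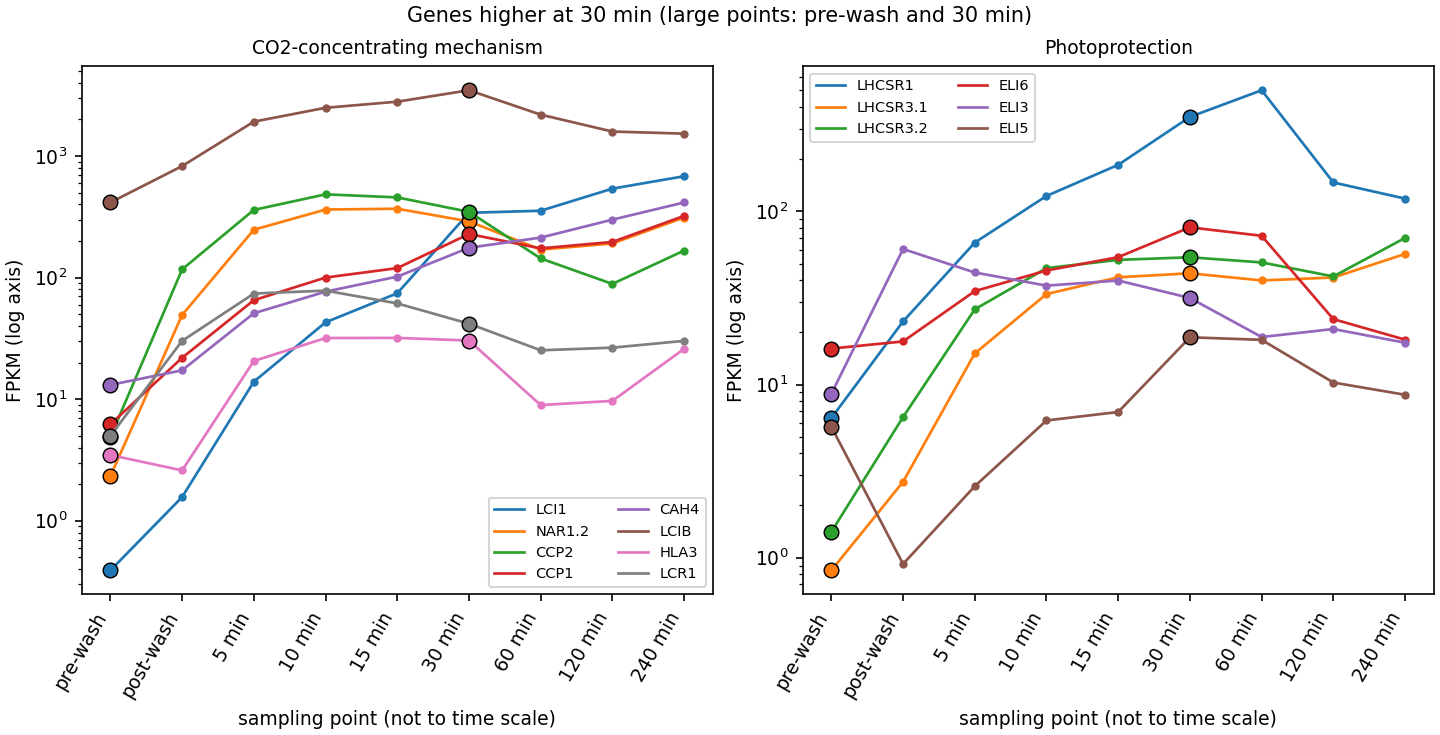
FPKM (log axis) of 8 genes of the CO2-concentrating mechanism and its regulation (left) and 6 photoprotection genes (right) at the 9 sampling points in time order, not to time scale, with large points at pre-wash and 30 min. LCI1 goes on increasing up to 682 FPKM at 240 min, whereas LCR1 is highest at 10 min, and LHCSR1 is highest at 60 min with 501 FPKM.

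Photoprotection genes were higher as well. Of 9 compared members, 6 were at least 2-fold higher and 0 lower, with a median of 1.73. LHCSR1 had 351 FPKM at 30 min and 6.40 FPKM before the wash. LHCSR3.1 had 43.9 FPKM at 30 min and 0.843 FPKM before the wash and LHCSR3.2 54.3 FPKM at 30 min and 1.41 FPKM pre-wash, neighbouring genes whose near-identity makes their separate values uncertain. All 3 encode antenna relatives that quench excess energy. Among the early light-inducible proteins, ELI6 had 80.9 FPKM at 30 min against 16.1 FPKM pre-wash, ELI3 31.6 FPKM at 30 min and 8.84 FPKM before the wash, and ELI5 18.7 FPKM at 30 min and 5.69 FPKM pre-wash. ELI5 was below 1 FPKM in the post-wash column, at 0.918, and ELI3 had its highest value there, at 60.6 FPKM. The quenching protein genes PSBS1 and PSBS2 did not pass the filter. PSBS1 had 0.645 FPKM at 30 min and 0.0422 FPKM before the wash, and PSBS2 had 0.410 FPKM at 30 min and was listed at 0 before the wash.

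The carotenoid genes that were higher lie at the entry to the pathway and in its xanthophyll branch. Of 13 compared members, 3 (23.1%) were higher and 0 lower (median 0.47), against 5.53% and 3.74% of all compared genes. Under quantile normalization the median was 0.19 with 2 (15.4%) higher. CBH1, beta-carotene hydroxylase, had 90.9 FPKM at 30 min and 16.0 FPKM before the wash, after a low of 2.999 FPKM post-wash. ZEP1 (Cre02.g082550), zeaxanthin epoxidase, had 76.7 FPKM at 30 min and 28.3 FPKM before the wash, and PSY1, phytoene synthase, 108 FPKM at 30 min and 46.0 FPKM pre-wash.

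The antenna itself was lower or close to its earlier level. Of 21 light-harvesting genes, 18 had lower values at 30 min, but only LHCBM6 reached 2-fold, with 948 FPKM at 30 min against 2177 FPKM before the wash (median -0.27, and -0.37 with 3 lower under quantile normalization). LHCBM2 had 1626 FPKM at 30 min against 2993 FPKM pre-wash and LHCBM5 650 FPKM at 30 min and 1281 FPKM before the wash, though near-identical LHCBM genes may share reads. LHCB7, a minor member, had 11.6 FPKM at 30 min and 5.99 FPKM pre-wash. Photosystem II genes had a median of -0.24 with 1 of 12 lower, PSBP2 (4.98 FPKM at 30 min, 15.8 FPKM pre-wash), or -0.43 with 2 lower under quantile normalization. PSBR had 3942 FPKM at 30 min against 5347 FPKM pre-wash. Photosystem I genes had a median of 0.00 with 0 of 10 past the line in either direction, or -0.12 under quantile normalization. Of 24 Calvin cycle genes 1 was higher and 1 lower, with a median of 0.31 (0.10 with 0 higher and 2 lower under quantile normalization). RCA1, Rubisco activase, had 1295 FPKM at 30 min and 617 FPKM before the wash and fell below the line under quantile normalization, and GAP2 had 3.77 FPKM at 30 min and 9.46 FPKM pre-wash.

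Tetrapyrrole synthesis makes both chlorophyll and haem, and few of its members passed 2-fold in either direction. Of 27 compared members 23 had lower values at 30 min, with a median of -0.27 against 0.07 for all compared genes. At 2-fold 2 (7.41%) were lower and 2 (7.41%) higher, near the 3.74% and 5.53% of all compared genes. Under quantile normalization the median was -0.54, with 1 (3.70%) higher and 4 (14.8%) lower, against 4.04% and 4.28%. POR, which reduces protochlorophyllide on the chlorophyll branch, had 107 FPKM at 30 min and 250 FPKM before the wash, and PBGD1, an early enzyme of the common trunk, 122 FPKM at 30 min against 252 FPKM pre-wash. Both had lower values still at 5, 10 and 15 min, with POR at 55.2, 56.7 and 54.6 FPKM. FeC, ferrochelatase, which inserts iron to form haem, had 108 FPKM at 30 min and 35.2 FPKM before the wash. UPM1, which leads to sirohaem, had 22.3 FPKM at 30 min and 9.99 FPKM pre-wash and dropped below 2-fold under quantile normalization. The magnesium chelatase subunit CHLH1 had 130 FPKM at 30 min against 138 FPKM pre-wash, and CTH1 of the chlorophyll cyclase 243 FPKM at 30 min and 250 FPKM before the wash.

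Of the 13 compared genes for using acetate 6 were at least 2-fold lower and 0 higher, with a median of -0.92 (-1.29 with 7 lower under quantile normalization), and their summed FPKM was 1027 at 30 min and 4044 before the wash. ICL1, isocitrate lyase of the glyoxylate cycle, had 290 FPKM at 30 min and 1861 FPKM pre-wash. MAS1, malate synthase, the other enzyme specific to that cycle, had 93.7 FPKM at 30 min against 424 FPKM pre-wash. ACS3, which activates acetate to acetyl-CoA, had 71.3 FPKM at 30 min and 416 FPKM before the wash, and its values were already 143 FPKM at 5 min, when ICL1 still had 1443 FPKM. CIS2, a citrate synthase, had 67.7 FPKM at 30 min and 277 FPKM pre-wash, PCK1, phosphoenolpyruvate carboxykinase, 156 FPKM at 30 min against 385 FPKM pre-wash, and ACH1, aconitate hydratase, 246 FPKM at 30 min and 530 FPKM before the wash. The alternative enzymes ACS1 (3.58 FPKM at 30 min, 4.46 FPKM pre-wash) and CIS1 (27.4 FPKM at 30 min, 30.3 FPKM pre-wash) and the acetate kinase ACK2 (6.57 FPKM at 30 min, 8.99 FPKM pre-wash) stayed within 2-fold. FBP1, fructose-bisphosphatase, had 43.2 FPKM at 30 min and 82.7 FPKM before the wash, just short of the line. ACK1 was the member with a higher value, 3.61 FPKM at 30 min and 1.99 FPKM pre-wash.

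The GFY genes encode relatives of acetate transporters. All 5 had lower values at 30 min and 4 passed the line (median -1.45, or -1.74 under quantile normalization), with a summed FPKM of 3264 at 30 min and 6902 before the wash. GFY3 had 802 FPKM at 30 min against 2467 FPKM pre-wash and GFY4 334 FPKM at 30 min and 1127 FPKM before the wash. GFY1, with 12.8 FPKM at 30 min and 36.7 FPKM pre-wash, and GFY2, with 16.5 FPKM at 30 min against 36.7 FPKM pre-wash, had first stood at 402 and 161 FPKM in the post-wash column. GFY5, the most abundant at 30 min with 2098 FPKM, against 3235 FPKM before the wash, did not reach 2-fold.

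The other genes among the 15 lowest with a symbol have diverse roles. TAL1, transaldolase of the pentose phosphate pathway, had 14.1 FPKM at 30 min and 165 FPKM before the wash, the lowest log2 difference among these. AMYA1, an alpha-amylase, had 7.19 FPKM at 30 min and 39.6 FPKM before the wash and AMYB2, a beta-amylase, 6.24 FPKM at 30 min and 30.8 FPKM pre-wash. The transporter gene HPT1 on Cre10.g435650 had 0.522 FPKM at 30 min against 8.72 FPKM pre-wash. TGL20, a lipase-like gene, had 2.17 FPKM at 30 min and 19.6 FPKM before the wash, CYP747A1, a cytochrome P450, 0.774 FPKM at 30 min and 12.8 FPKM pre-wash, and CYN28, a cyclophilin, 1.42 FPKM at 30 min against 9.79 FPKM pre-wash. BIP2, a chaperone of the endoplasmic reticulum, had 6.50 FPKM at 30 min and 39.1 FPKM before the wash, while its close relative BIP1 had 182 FPKM at 30 min and 190 FPKM pre-wash, so reads may have been shared. HCD2 had 2.67 FPKM at 30 min against 12.1 FPKM pre-wash. PHX15 had 7.36 FPKM at 30 min and 41.8 FPKM before the wash, with its highest value, 811 FPKM, in the post-wash column between them.

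**Figure D4:**
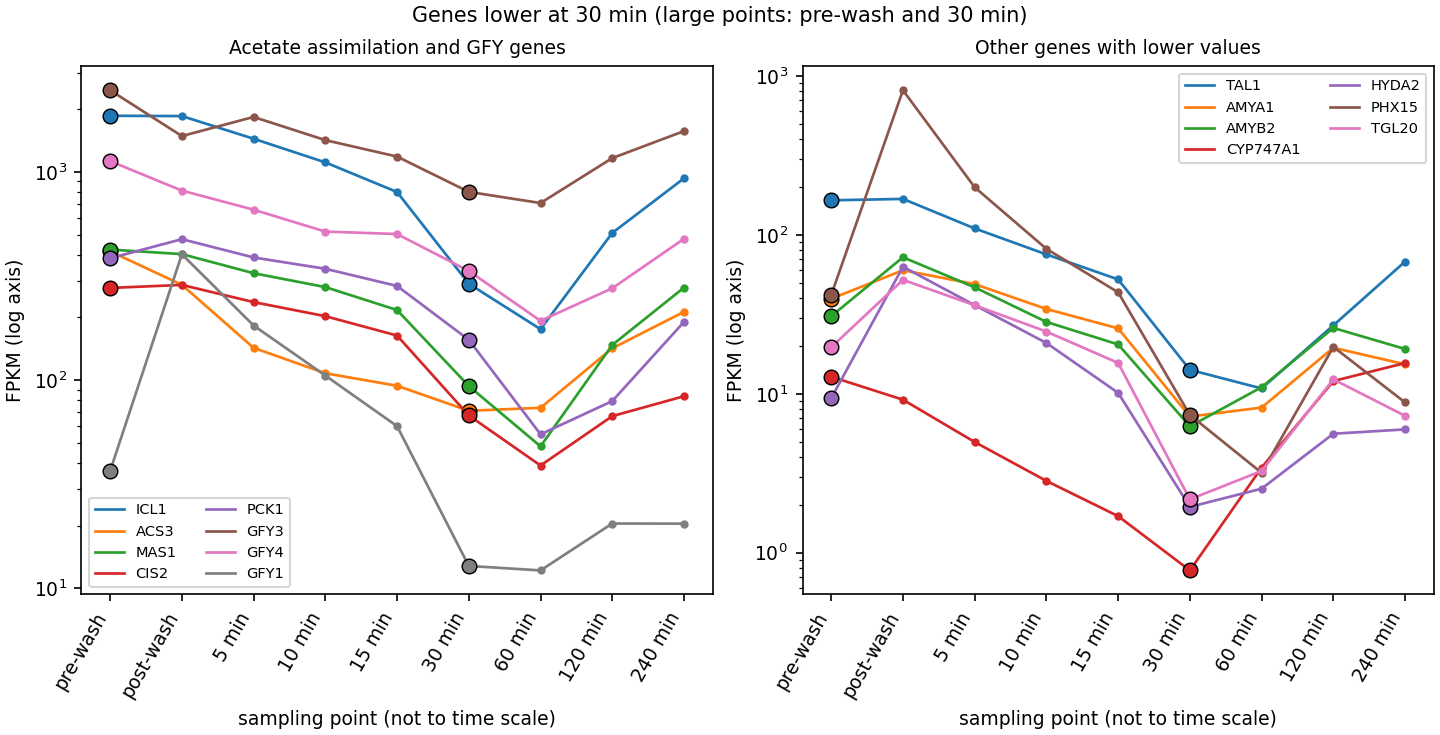
FPKM (log axis) of 8 acetate assimilation and GFY genes (left) and 7 other genes with lower values (right) at the 9 sampling points in time order, not to time scale, with large points at pre-wash and 30 min. ICL1 decreases to 290 FPKM at 30 min and 176 FPKM at 60 min and stands at 931 FPKM at 240 min, while PHX15, HYDA2, GFY1, AMYB2 and TGL20 are highest in the post-wash column.

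Fermentation genes were divided at 30 min. Of 15 compared members 3 (20%) were higher and 2 (13.3%) lower, against 5.53% and 3.74% of all compared genes. The median of -0.25 turned to 0.01 without the filter on low values and to 0.03 with a minimum of 5 FPKM. PFL1, pyruvate-formate lyase, had 905 FPKM at 30 min and 181 FPKM before the wash. ADH1, which makes ethanol from acetyl-CoA, had 87.4 FPKM at 30 min and 28.8 FPKM pre-wash, and HYDG1, a hydrogenase maturation factor, 36.9 FPKM at 30 min against 16.8 FPKM pre-wash. HYDA2, a hydrogenase, had 1.94 FPKM at 30 min and 9.38 FPKM before the wash, and LDH1 3.70 FPKM at 30 min and 10.5 FPKM pre-wash. HYDA1, the other hydrogenase, had 115 FPKM at 30 min against 58.5 FPKM pre-wash, just below the line. In the post-wash column 5 of these genes had been higher than in either, with PFL1 at 1157, ADH1 at 190, HYDG1 at 328, HYDA2 at 62.9 and HYDA1 at 391 FPKM, whereas LDH1 had 8.78 FPKM there. PFL1, ADH1 and HYDG1 were thus still above the pre-wash column at 30 min, and HYDA2 was below it. Among the genes furthest above pre-wash with a symbol, ADH5 (56.4 FPKM at 30 min, 5.51 FPKM pre-wash) and PNO1 (33.7 FPKM at 30 min, 2.59 FPKM pre-wash) also had most of their difference at post-wash, with 50.2 and 35.7 FPKM there.

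Cilia genes had small positive list medians at 30 min, and these had been larger at 5 min. Of 229 flagella associated protein genes 18 (7.86%) were 2-fold higher and 2 lower (median 0.34), near the 5.53% of all compared genes that were higher. Under quantile normalization 4 (1.75%) were higher and 4 lower, below the 4.04% of all genes that were higher there. The list median was then 0.24, against -0.003 for all compared genes. FAP12 had 361 FPKM at 30 min and 138 FPKM before the wash, FAP151 205 FPKM at 30 min and 85.7 FPKM before the wash, FAP128 48.5 FPKM at 30 min and 19.8 FPKM pre-wash and FAP174 108 FPKM at 30 min against 45.1 FPKM pre-wash. Among genes of the axonemal dyneins and radial spokes, which power and coordinate beating, 10 of 66 (15.2%) were higher and 0 lower (median 0.67). Under quantile normalization 2 (3.03%) were higher, again below the share of all genes, while the list median remained positive at 0.46. RSP6 of the radial spoke head had 36.3 FPKM at 30 min and 13.7 FPKM before the wash and RSP9 97.8 FPKM at 30 min and 39.0 FPKM pre-wash, while RSP1 had 29.1 FPKM at 30 min against 11.4 FPKM pre-wash. Of 30 genes for intraflagellar transport and the BBSome, which carry cargo into cilia, 0 were past the line in either direction (median 0.33), with IFT20 at 101 FPKM at 30 min and 63.0 FPKM before the wash. Relative to the shared pre-wash column the medians at 5, 30 and 60 min were 1.44, 0.34 and -0.32 for the flagella associated proteins, 1.41, 0.67 and -0.31 for dyneins and spokes, and 1.25, 0.33 and -0.42 for intraflagellar transport.

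Sulfur and redox genes contained a few large differences within lists whose medians were near 0. Of 35 compared sulfur genes 4 (11.4%) were higher and 0 lower, against 5.53% and 3.74% of all compared genes. The median was 0.00, or -0.08 with 3 higher and 1 lower under quantile normalization. The higher members were mostly sulfate transporters, but other SULTR and SLT genes of the list did not pass the line. SULTR1 (23.1 FPKM at 30 min, 26.9 FPKM pre-wash) and SULTR4 had lower values. SLT2 (30.3 FPKM at 30 min, 24.3 FPKM pre-wash) had a higher one. SULP1, SULP2 and SULP3 had higher values and also stayed within 2-fold. SULTR2 had 132 FPKM at 30 min and 23.1 FPKM pre-wash, SLT1 17.4 FPKM at 30 min against 4.05 FPKM pre-wash and SLT3 117 FPKM at 30 min and 37.2 FPKM before the wash. SIR3, a sulfite reductase, had 15.2 FPKM at 30 min and 6.77 FPKM pre-wash and lost its place under quantile normalization. In the list of redoxins and antioxidants 9 of 73 (12.3%) were higher and 1 (1.37%), MSD3, lower. Its median was 0.10, or -0.22 under quantile normalization. NRX2 and NRX3 encode nucleoredoxins and are neighbours in the genome. NRX2 had 130 FPKM at 30 min and 18.1 FPKM before the wash, and NRX3 had 31.3 FPKM at 30 min and 3.31 FPKM before the wash. MSRA1, a methionine sulfoxide reductase, had 42.8 FPKM at 30 min and 5.24 FPKM pre-wash, and GPX1, a glutathione peroxidase, 25.2 FPKM at 30 min against 4.11 FPKM pre-wash.

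Nitrogen and phosphate genes gave single cases. Of 20 compared nitrogen genes 2 (10%) were higher and 1 (5%) lower, near the 5.53% and 3.74% of all compared genes. The median was 0.16, or -0.03 with 2 higher and 2 lower under quantile normalization. As deposited, the higher genes were NAR1.2, named above with the CO2-concentrating mechanism, and GDH2, glutamate dehydrogenase. GDH2 had 168 FPKM at 30 min and 36.6 FPKM before the wash. GSN1, the NADH-dependent glutamate synthase, had 11.8 FPKM at 30 min and 28.7 FPKM pre-wash. Of 12 phosphate genes only 1 (8.33%) was past the line, near the share of all compared genes (list median -0.03). This was PSR1, the Myb-like starvation regulator, with 3.96 FPKM at 30 min against 1.07 FPKM pre-wash.

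Genes of protein synthesis and turnover differed little. Of 74 cytosolic ribosomal protein genes 73 had slightly higher values (median 0.28, and 0.10 under quantile normalization), and they held 35.4% of the summed FPKM at 30 min and 34.1% before the wash. RPL37 had 4426 FPKM at 30 min and 3264 FPKM before the wash, and RPS27E2, the 1 member past the line, 4.87 FPKM at 30 min and 12.4 FPKM pre-wash. Plastid ribosomal proteins (37 genes, median 0.28), mitochondrial ribosomal proteins (37 genes, median 0.22), ribosome biogenesis (24 genes, median 0.40), tRNA synthetases (27 genes, median 0.13) and proteasome subunits (30 genes, median 0.26) had 0 members at 2-fold in either direction. Under quantile normalization the medians of the tRNA synthetases and the proteasome turned to -0.11 each, and that of the plastid ribosome was 0.00. The respiratory chain had 1 of 89 higher, NUOS4B (8.96 FPKM at 30 min, 3.75 FPKM pre-wash), 0 lower and a median of -0.07 (-0.36 with 2 lower under quantile normalization). DNA replication and cell cycle genes had a median of -0.05, or 0.05 with a minimum of 5 FPKM, with 1 of 52 higher, the histone HTR8 (2.31 FPKM at 30 min, 0.256 FPKM pre-wash), and 1 lower, the kinase CDKG1 (11.2 FPKM at 30 min, 24.1 FPKM pre-wash).

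Of 47 chaperone genes 7 (14.9%) were higher and 2 lower (median 0.35), and 3 (6.38%) were higher under quantile normalization, near the 4.04% of all genes. HSP70A of the cytosol had 926 FPKM at 30 min and 381 FPKM before the wash, HSP90A 615 FPKM at 30 min against 278 FPKM pre-wash, and HSP70B of the chloroplast 354 FPKM at 30 min and 170 FPKM before the wash. HSF1, the heat shock factor, had 18.3 FPKM at 30 min and 8.27 FPKM pre-wash, and CDJ3, a chloroplast J-domain protein, 32.5 FPKM at 30 min against 8.91 FPKM pre-wash. HSP90A, HSP70B and HSF1 dropped below 2-fold under quantile normalization. CLPD1 was lower, with 1.27 FPKM at 30 min and 5.18 FPKM before the wash.

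**Figure D5:**
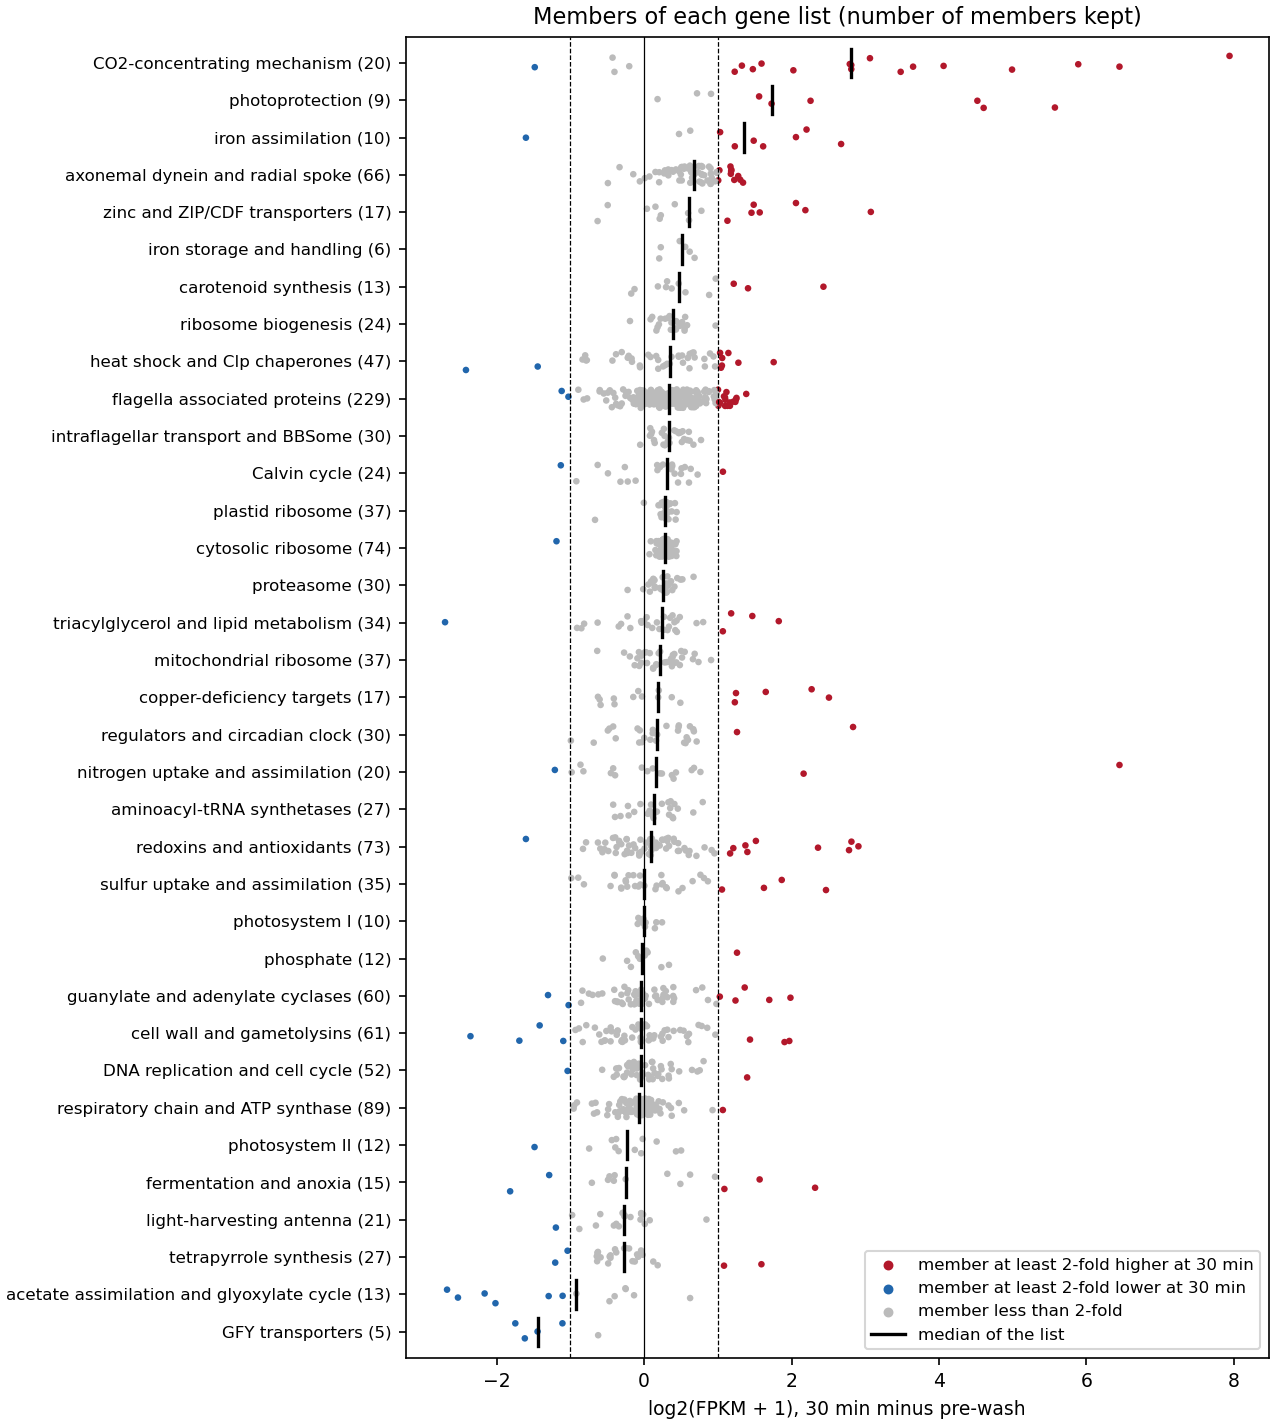
Log2(FPKM + 1) difference, 30 min minus pre-wash, of every compared member of 35 gene lists, with black bars at the list medians and colours for members past the 2-fold lines (dashed). The CO2-concentrating mechanism lies highest with a median of 2.80 and the GFY transporters lowest with -1.45, while most lists lie within 0.5 of 0.

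The counts for lipid, wall and cyclase genes were small, and most lay near the shares over all compared genes, 5.53% higher and 3.74% lower. Of 34 compared lipid genes 4 (11.8%) were higher and 1, TGL20, lower (median 0.24, with 2, or 5.88%, higher under quantile normalization). FAD7, the plastid omega-3 desaturase, had 532 FPKM at 30 min and 192 FPKM pre-wash and TGL16 77.9 FPKM at 30 min against 21.3 FPKM pre-wash, while DGD1, which makes the galactolipid of thylakoids, had 52.6 FPKM at 30 min and 22.7 FPKM before the wash. Of 61 cell wall and gametolysin genes 3 (4.92%) were higher and 4 (6.56%) lower (median -0.04), among them the extracellular matrix gene VSP3 (38.8 FPKM at 30 min, 9.15 FPKM pre-wash) and the pherophorin PHC5 (78.2 FPKM at 30 min, 255 FPKM pre-wash). PHX5 had 14.3 FPKM at 30 min and 3.08 FPKM before the wash, with 143 FPKM in the post-wash column. Of 60 guanylate and adenylate cyclase genes 5 (8.33%) were higher and 2 (3.33%) lower, with a median of -0.04 that was 0.29 with a minimum of 5 FPKM and 0.01 under quantile normalization. CYG54 had 18.6 FPKM at 30 min against 5.05 FPKM pre-wash, CYG63 4.15 FPKM at 30 min and 0.302 FPKM before the wash and CYG46 0.310 FPKM at 30 min and 2.24 FPKM pre-wash. In the list of regulators and clock genes LCR1 and PSR1 were the 2 of 30 past the line.

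Some of the largest differences belonged to genes without a symbol. Cre26.g756747 had 102 FPKM at 30 min and 0.969 FPKM before the wash, Cre16.g662600 375 FPKM at 30 min against 18.9 FPKM pre-wash, and Cre01.g029700 182 FPKM at 30 min and 12.3 FPKM before the wash. On the lower side Cre13.g603550 had 4.32 FPKM at 30 min and 96.4 FPKM pre-wash, the lowest log2 difference of all compared genes. Cre12.g535100 had 1.29 FPKM at 30 min against 19.9 FPKM pre-wash and Cre09.g409650 1.49 FPKM at 30 min and 21.6 FPKM before the wash. These 3 genes were at their highest in the post-wash column, with 783, 61.5 and 206 FPKM. Of the 696 genes called higher 314 (45.1%) had a symbol, and of the 470 called lower 130 (27.7%), against 4430 of the 12580 compared genes (35.2%).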

How the data were processed

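The deposited table holds FPKM computed by the authors, and per the file headers its gene identifiers follow annotation v5.6. The submitters' processing notes name the tools STAR 2.4.1 and Cuffdiff 2.0.2. The sources used here give neither genome build nor strand use nor the scaling between libraries. The authors deposited 1 FPKM column per time point for its 2 cultures, and 9 further columns of other samples were not used.

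The difference was log2(FPKM + 1) at 30 min minus pre-wash, with a call at 2-fold. The counting was checked on simulated data. Tools were Python 3.11.15, pandas 2.3.3, numpy 2.4.6 and matplotlib 3.10.9. A RefSeq table of assembly Chlamydomonas_reinhardtii_v5.5, matching 17738 identifiers, gave gene order only.

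Gene lists were matched by symbol, and 5186 genes had one. Symbols whose deposited product named another protein were dropped. Some lists share members. The comparison, members and lists were chosen with earlier results of these data known. Named were all iron assimilation members, the 15 genes with a symbol and at least 5 FPKM that differed most each way, up to 4 members of each other list, and 3 genes without symbol each way. Further members and regulators given with values were chosen after their values were seen. Ratios are plain FPKM ratios. Alternatives were a pseudocount of 0.1, no filter, at least 5 FPKM in 2 columns, quantile normalization, median-of-ratios scaling and a 4-fold threshold. A search for promoter motifs was not made.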

Additional observations from a re-analysis of the deposited data

How the results depend on the processing

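With the filter left out, 697 genes were higher and 471 lower, and median-of-ratios scaling gave 707 and 459. Requiring 5 FPKM in at least 2 columns gave 632 higher and 296 lower, and moved the median of the compared genes by 0.11. A pseudocount of 0.1 raised the total to 2099 genes, 985 higher and 1114 lower. At 4-fold 140 genes remained, 104 higher and 36 lower. Under quantile normalization the total was 1047, with 508 higher (48.5% of calls, against 59.7% as deposited) and 539 lower. The cause of these shifts was not tested. Of 145 genes past the 2-fold line that were named by rule or given with values, all kept their call with a pseudocount of 0.1 and with no filter, all 138 that passed the stricter filter did so there, and all but 2 did with median-of-ratios scaling and all but 22 under quantile normalization. Median-of-ratios scaling took EEP1 and Cre13.g576350, which lie at the line, below it. Under quantile normalization ERG4, CYP51G1, PSY1, FAP174, SIR3, RCA1, RSP9, UPM1, RSP11, FAP151, FAP128, GCSP, TEF22, CTR1, DGD1, EEP1, RSP4, HSP70B, HYDG1, HSP90A, HSF1 and CTR3 fell below it. Quantile normalization also lowered list medians, to 0.10 for intraflagellar transport, 0.08 for the mitochondrial ribosome, 0.18 for ribosome biogenesis, 0.14 for chaperones, 0.08 for lipid genes and -0.36 for the respiratory chain. No call and no named difference past the line reversed its direction. No paired analysis was possible because the authors combined the 2 cultures of each time point into 1 column, and for the same reason no culture could be left out.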

Other observations

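The gene groups in this paragraph and the next were picked after the values had been seen, so their counts describe the data and support nothing further. Photorespiration recovers the product that Rubisco forms with oxygen. Of its 14 genes 8 (57.1%) were at least 2-fold higher at 30 min and 0 lower (median log2 difference 1.08). Under quantile normalization 3 (21.4%) were higher. Over all compared genes 5.53% were higher and 3.74% lower, or 4.04% and 4.28% under quantile normalization. SGA1, serine glyoxylate aminotransferase, had 211 FPKM at 30 min and 57.3 FPKM before the wash, GLYK1, glycerate kinase, 39.2 FPKM at 30 min and 12.1 FPKM pre-wash, and GYD1, glycolate dehydrogenase, 110 FPKM at 30 min against 37.9 FPKM pre-wash. Selenoproteins carry selenocysteine in their active sites, and 8 of 9 were higher and 0 lower, with a median of 1.91 and the same counts under quantile normalization. SELW1 had 148 FPKM at 30 min and 20.3 FPKM before the wash, SELW2, its neighbour, 8.76 FPKM at 30 min and 0.670 FPKM pre-wash, and NTR1 53.7 FPKM at 30 min against 13.5 FPKM pre-wash. Of 9 sterol genes 6 were higher and 0 lower (median 1.06), and 2 were higher under quantile normalization. SMT2, a sterol methyltransferase, had 509 FPKM at 30 min and 171 FPKM before the wash and ERG3 130 FPKM at 30 min and 37.3 FPKM pre-wash.

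Starch genes went both ways, with 4 of 32 (12.5%) higher and 6 (18.75%) lower, against 5.53% and 3.74% of all compared genes. Under quantile normalization 2 (6.25%) were higher and 9 (28.1%) lower, against 4.04% and 4.28%. STA2, granule-bound starch synthase, had 411 FPKM at 30 min and 115 FPKM before the wash, and SBE3, a branching enzyme, 180 FPKM at 30 min against 70.9 FPKM pre-wash. The other higher ones were ISA1 and GWD2 (16.5 FPKM at 30 min, 7.02 FPKM pre-wash). Among the lower ones were the amylases AMYA1, AMYB2 and AMYA2 (31.1 FPKM at 30 min, 66.0 FPKM pre-wash). The starch synthase SSS2 was lower too (29.2 FPKM at 30 min, 63.3 FPKM pre-wash), as were GWD1 and PWD1. The amylases AMYB1 and AMYB3 stayed within 2-fold. Of 27 genes named LCI for low-CO2 induction 14 (51.9%) were higher and 1 (3.70%) lower (median 1.06). LCI23, a septin-like gene, had 12.0 FPKM at 30 min and 0.0278 FPKM before the wash, LCI31 135 FPKM at 30 min and 15.8 FPKM pre-wash, LCI16 239 FPKM at 30 min against 34.1 FPKM pre-wash, and LCI26 was lower with 2.27 FPKM at 30 min and 8.08 FPKM before the wash. LCI23, LCI31 and LCI16 are not in the list of the CO2-concentrating mechanism given above, which shares LCI1, LCI5 and the LCI11 genes with these 27.

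In the RefSeq gene order some genes with a higher call lay side by side. There were 66 such adjacent pairs, and 121 of the 696 genes (17.4%) had a neighbour with the same call, whereas 8.05% of all compared genes had a neighbour called higher. For lower calls there were 28 pairs, with 56 of 470 genes (11.9%) against 5.52% of all compared genes. The pairs include related copies such as LHCSR3.1 with LHCSR3.2, CAH4 with CAH5 and the radial spoke genes RSP6 with RSP4, and the part of read sharing in these shares was not tested. Other pairs join unlike genes, such as LCIE with CCP1, and PNO1 with HTR8.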
